A study of Mus musculus with 503 samples.

Results

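The genes described here are 10 collagen genes of mouse perivascular cells: *Col1a1*, *Col1a2*, *Col3a1*, *Col5a1*, *Col5a2*, *Col5a3* and *Col11a1*, which encode chains of the fibrillar collagens, and *Col6a1*, *Col6a2* and *Col6a3*, which encode chains of type VI collagen. They were chosen by gene symbol from 56701 gene rows of a single-cell count table, and all 10 had counts in every group. The table held 503 cells of the series, each sequenced as a library of its own by Smart-seq3, a full-length single-cell RNA method. The cells came from adult GLAST-CreERT2;R26R-tdTomato;Pdgfrb-eGFP mice on a C57BL/6J background, all given tamoxifen and then a clearing period. Every cell is labelled as female. The study's methods give female mice alone for crush lesions, although its reporting summary names both sexes for sequencing. In these mice Cre is driven by the promoter of GLAST, the glutamate transporter encoded by *Slc1a3*, so that tdTomato marks cells that used this promoter when tamoxifen was given and also their progeny, whereas EGFP marks cells in which the *Pdgfrb* promoter is active. Cells positive for EGFP, and either positive or negative for tdTomato, were sorted from uninjured cord and from cord crushed completely at a thoracic level (SCI), 3 days after SCI per the sample labels. After removal of low-quality and *Pecam1*-rich cells 468 remained: 65 and 72 uninjured tdTomato+EGFP+ cells on plates 209 and 213, 46 and 60 uninjured tdTomato-EGFP+ cells on the same plates, 88 and 34 SCI tdTomato+EGFP+ cells on plates 211 and 215, and 58 and 45 SCI tdTomato-EGFP+ cells on those. No animal is named for any cell, so each group was treated as 1 sample, and no p-value or standard error is given.

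Fibrillar collagens are triple helices that assemble into the fibrils that give connective tissue its tensile strength. Type I collagen, made of *Col1a1* and *Col1a2* chains, and type III, made of *Col3a1* chains, form the bulk of most fibrils, and the minor types V and XI take part in starting fibrils and setting their width. Type VI collagen is a beaded microfilament of *Col6a1*, *Col6a2* and *Col6a3* chains found close to cells and basement membranes. In the central nervous system these genes are known mainly from fibroblasts around large vessels and in the meninges, and from the fibrotic scar that follows injury.

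The labels could be checked against the genes that drive the reporters. *Slc1a3* stood at 212 CPM (counts of a gene summed over the cells of a group, per 1000000 counts of that group) before and 207 CPM after SCI in the tdTomato+EGFP+ sort, but 31.5 and 10.7 CPM in the other, and *Pdgfrb* was between 1213 and 2491 CPM in every group. Group totals ran from 25643942 to 38399916 counts. Since no plate held both uninjured and SCI cells, injury and plate cannot be told apart, whereas both sorts were on each plate. Plate 215 was shallow for SCI tdTomato+EGFP+ cells (median 14770 counts a cell) and held 5.39% of the counts of that group, so its levels are in effect those of plate 211. The levels of cell type markers differed between groups as well: the summed level of 9 pericyte markers was 11198, 12270, 711 and 11167 CPM in uninjured tdTomato+EGFP+, uninjured tdTomato-EGFP+, SCI tdTomato+EGFP+ and SCI tdTomato-EGFP+ cells, that of 8 perivascular fibroblast markers 3983, 1368, 19114 and 4151 CPM, that of 5 endothelial markers 3636, 3948, 345 and 1423 CPM, and that of 6 cycling markers 8.33, 8.52, 1167 and 626 CPM. A difference between groups in a sum of cells can come from the share of cells of a type or from the level per cell, and sums alone do not tell these apart.

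Some of the promoters are printed for orientation, because *Col1a2* and *Col3a1* were found in many cells of every group, whereas *Col5a1*, *Col6a1* and *Col6a3* were found in few uninjured and many SCI cells. Each sequence is the 250 bases before the RefSeq start site on the coding strand in GRCm38.p6, which is the assembly also called mm10 that the labels name. Capitals mark matches, searched on both strands, to the CCAAT box, to the GC box letters GGGCGG or to the TATA box letters TATAAA.
Col1a2, chr6:4505368-4505617, + strand: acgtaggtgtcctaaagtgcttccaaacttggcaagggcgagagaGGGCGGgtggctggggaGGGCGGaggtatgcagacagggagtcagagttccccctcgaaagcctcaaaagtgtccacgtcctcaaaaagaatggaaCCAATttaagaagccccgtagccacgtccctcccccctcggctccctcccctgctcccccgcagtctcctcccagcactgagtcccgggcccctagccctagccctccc
Col3a1, chr1:45311288-45311537, + strand: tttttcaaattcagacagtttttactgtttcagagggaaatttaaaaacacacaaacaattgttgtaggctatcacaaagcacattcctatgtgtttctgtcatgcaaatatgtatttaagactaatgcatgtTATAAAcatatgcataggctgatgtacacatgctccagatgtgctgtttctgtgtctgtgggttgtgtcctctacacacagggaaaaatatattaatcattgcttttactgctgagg
Col5a1, chr2:27886175-27886424, + strand: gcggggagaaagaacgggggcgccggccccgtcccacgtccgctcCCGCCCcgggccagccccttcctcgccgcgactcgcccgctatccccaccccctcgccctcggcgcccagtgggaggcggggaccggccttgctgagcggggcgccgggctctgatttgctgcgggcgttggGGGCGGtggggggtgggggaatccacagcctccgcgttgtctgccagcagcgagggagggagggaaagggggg
Col6a1, chr10:76726045-76726294, - strand: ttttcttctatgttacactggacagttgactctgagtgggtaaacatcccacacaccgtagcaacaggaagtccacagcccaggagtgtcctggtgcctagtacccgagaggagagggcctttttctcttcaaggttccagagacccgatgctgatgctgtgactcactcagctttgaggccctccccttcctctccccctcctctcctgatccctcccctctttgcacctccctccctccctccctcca
Col6a3, chr1:90843972-90844221, - strand: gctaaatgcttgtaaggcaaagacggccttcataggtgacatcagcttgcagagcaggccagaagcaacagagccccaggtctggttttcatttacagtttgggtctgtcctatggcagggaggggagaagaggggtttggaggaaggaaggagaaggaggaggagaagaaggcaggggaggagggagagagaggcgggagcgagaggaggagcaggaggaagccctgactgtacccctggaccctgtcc
*Col1a2* held 1 CCAAT box and 2 GC boxes, all on the coding strand. *Col5a1* held 1 GC box on each strand. *Col3a1* held the TATA box letters once, at position -117 from the start site, and the windows of *Col6a1* and *Col6a3* held none of these letters. Among 32851 RefSeq promoters of the same length, 33.8% held the CCAAT box, 32.7% the GC box and 12.4% the TATA box, so these matches are a description only. On GRCm38 with the GENCODE annotation, the genes lie apart except for *Col3a1* (chr1:45311538-45349706, + strand) and *Col5a2* (chr1:45374321-45503282, - strand), which are neighbours on chromosome 1, and *Col6a2* (chr10:76595762-76623630) and *Col6a1* (chr10:76708792-76726168), which are neighbours on the - strand of chromosome 10. *Col6a3* is elsewhere on chromosome 1 (chr1:90765923-90843971, - strand). In this annotation the printed *Col1a2* window lies inside the gene, which begins at chr6:4504814, and the *Col6a1* window overlaps its gene in part.

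In uninjured cord the chains of types I and III stood highest. Levels of different genes were compared per kilobase of exon, a scale apt for counts of reads. Whether these counts are reads or molecules is not given, and for molecules the undivided CPM given below would apply. Uninjured tdTomato+EGFP+ cells had 142.6 CPM per kb of *Col1a2*, 137.1 of *Col3a1* and 107.1 of *Col1a1*. Then came *Col6a1* at 64.2, *Col6a2* at 33.1, *Col5a2* at 19.5 and *Col5a3* at 7.04. The order ended with *Col6a3* at 4.37, *Col11a1* at 2.24 and *Col5a1* at 2.04. Neighbours in this order that exchanged places between plates 209 and 213 were *Col1a2* and *Col3a1*, and *Col11a1* and *Col5a1*. In SCI tdTomato+EGFP+ cells the order began with *Col3a1* at 857, *Col1a1* at 543 and *Col1a2* at 455 CPM per kb. The 10 genes together made up 0.280% of all counts before and 1.25% after SCI in tdTomato+EGFP+ cells, against 0.167% and 0.755% in tdTomato-EGFP+ cells.

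Type I and III chains differed between groups over a wide range. In uninjured tdTomato+EGFP+ cells *Col1a1*, the major chain of type I collagen, had a level of 635 CPM (515 on plate 209 and 721 on plate 213), and in SCI tdTomato+EGFP+ cells one of 3219.7 CPM (3219 on plate 211 and 3239 on plate 215). In tdTomato-EGFP+ cells its level was 253 CPM before SCI (238 and 259.6) and 1550.2 CPM after it (2068 and 1079.8). Each SCI plate was above each uninjured plate of either sort. *Col1a2*, its partner chain, was at 763 CPM before and 2432 CPM after SCI in tdTomato+EGFP+ cells, against 472 and 1459.7 CPM in tdTomato-EGFP+ cells, with uninjured tdTomato-EGFP+ plates at 674 and 377 CPM. *Col3a1*, the chain of type III collagen, was at 763 and 4769.7 CPM in the former and at 592 and 2915 CPM in the latter. Its 2 uninjured tdTomato-EGFP+ plates were far apart, at 1060.5 and 370.0 CPM, and so were the SCI tdTomato-EGFP+ plates, at 4044 and 1890.2 CPM, but the lowest SCI plate remained above the highest uninjured plate.

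The minor fibrillar chains were lower than those of types I and III, also per kilobase of exon, with *Col5a2* the most abundant. *Col5a1*, which type V trimers of most tissues contain, was at 17.2 CPM before and 130.7 CPM after SCI in tdTomato+EGFP+ cells, against 20.2 and 76 CPM in tdTomato-EGFP+ cells. *Col5a2*, the second chain of the common type V trimer, stood at 128.99 and 825 CPM in the first sort and at 110.4 and 557 CPM in the second. For both genes the SCI plates and the uninjured plates did not overlap. *Col5a3*, an alternative type V chain, stood at 43.1 and 87.9 CPM in the first sort and 37.7 and 148.1 CPM in the second, and was the only member whose highest group was SCI tdTomato-EGFP+ cells with each plate of that group (137.6 and 157.6 CPM) above each plate of SCI tdTomato+EGFP+ cells (86.6 and 110.3). *Col11a1*, a type XI chain best known from cartilage, was the lowest of the members in tdTomato-EGFP+ cells, in CPM and per kilobase, at 8.78 CPM before and 21.5 CPM after SCI, and was at 17.2 and 27.7 CPM in tdTomato+EGFP+ cells before and after SCI.

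The 3 chains of type VI collagen did not follow each other. *Col6a1* was at 263 CPM before and 412 CPM after SCI in tdTomato+EGFP+ cells, against 80.6 and 367 CPM in tdTomato-EGFP+ cells. *Col6a2* was at 130.7 before and 138.7 CPM after SCI in the first sort and at 52 and 140.8 CPM in the second. *Col6a3*, whose chain is the longest of the 3, was at 44.1 and 421 CPM in the first sort and at 39.7 and 314 CPM in the second. Thus *Col6a2* in tdTomato+EGFP+ cells overlapped between uninjured plates (86.5 and 162.5 CPM) and SCI plates (135.7 and 191 CPM), whereas the *Col6a3* plates of the 2 conditions were far apart in either sort. Over all 10 genes and 4 groups, the exact Poisson 95% interval of a level reached at most 13.6% of that level away from it, for *Col11a1* in uninjured tdTomato-EGFP+ cells (8.78 CPM, 7.69 to 9.97). These intervals cover counting error only.

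**Figure D1:**
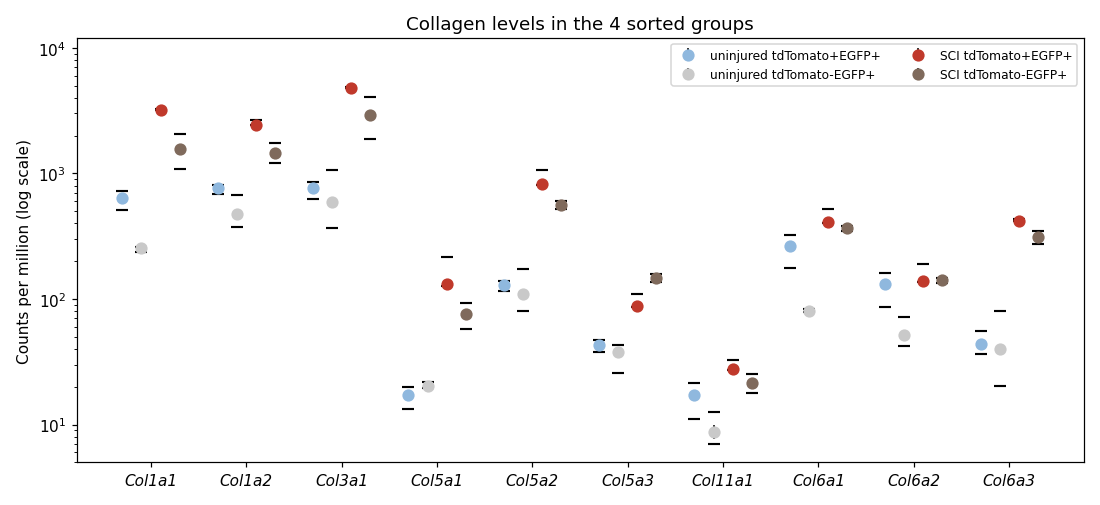
Level of each gene in CPM (log axis) in the 4 groups, where dots are group levels, bars are exact Poisson 95% intervals and dashes are the plates of a group. SCI tdTomato+EGFP+ cells stood above uninjured tdTomato+EGFP+ cells for *Col6a3* (421 against 44.1 CPM), and close to them for *Col6a2* (138.7 against 130.7 CPM).

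The first comparison was of the 2 sorts in uninjured cord, to ask whether tdTomato+EGFP+ cells carry more collagen transcript. The study describes some fibroblasts of its tdTomato-EGFP+ data as GLAST-positive cells that had not recombined, and left them out of an analysis. No such cells were removed here, so a lack of tdTomato does not show a lack of GLAST promoter activity. A gene was called higher or lower where the larger group level was at least 10 CPM, the difference of log2(CPM + 1) was at least 1 in size and every plate gave the same sign; a gene was tested where the larger level reached that minimum. Of 10 genes tested, 3 were called higher in tdTomato+EGFP+ cells and 0 lower, where 4.31% of all 11198 genes tested were called higher and 3.61% lower. *Col6a1* was higher by 1.70 on the log2(CPM + 1) scale (1.08 and 2.02 on the 2 plates), *Col1a1* by 1.33 (1.11 and 1.47) and *Col6a2* by 1.31 (0.25 and 1.91). The other 7 were not called, with differences from -0.22 for *Col5a1* to 0.89 for *Col11a1*, and *Col3a1* had opposite signs on the plates (-0.76 and 1.22). The median difference was 0.53 over the 10 genes and 0.01 over all genes tested. The call of *Col6a2* rested on plate 213, since its difference was 0.25 without that plate, and with the mean of each cell's CPM in place of the sum *Col6a1* was the only one of the 3 still called.

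After SCI the 2 sorts were compared in the same way. 1 gene was called higher in tdTomato+EGFP+ cells and 0 lower, against 4.31% and 17.9% of 10630 genes tested. *Col1a1* was higher by 1.05 (0.64 on plate 211 and 1.58 on plate 215), at 2.08-fold. *Col5a1*, *Col1a2*, *Col3a1* and *Col5a2* had differences of 0.77, 0.74, 0.71 and 0.57, which missed the call. *Col5a3* had a difference of -0.75 and was lower in tdTomato+EGFP+ cells of either plate (-0.66 and -0.51), and *Col6a1* and *Col6a2* differed by 0.17 and -0.02, the latter turning positive under TMM and DESeq2 scaling. The median of the 10 genes was 0.49 and that of all genes tested -0.32. TMM scaling moved the background to 8.87% higher and 11.3% lower and called 4 members, and *Col1a1* was not called without plate 215 (0.64) or with the mean of each cell's CPM (0.96).

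Injury was compared next within each sort, to ask which chains were higher in cells collected after SCI. In tdTomato+EGFP+ cells 7 of 10 genes were called higher and 0 lower, where 10.8% of 11428 genes tested were called higher and 34.3% lower. *Col6a3* was 9.53-fold higher (log2 difference 3.22, 2.91 to 3.56 over the 4 pairs of an SCI and an uninjured plate), *Col5a1* 7.61-fold (2.86), *Col5a2* 6.39-fold (2.67), *Col3a1* 6.25-fold (2.64), *Col1a1* 5.07-fold (2.34), *Col1a2* 3.19-fold (1.67) and *Col5a3* 2.04-fold (1.01). The chains of types I and III and the 2 chains of the common type V trimer were thus all among the genes called. Not called were *Col11a1* (0.66), *Col6a1* (0.64) and *Col6a2* (0.09, -0.26 to 1.14), so 1 of the 3 type VI chains was called under CPM. With TMM factors 9 of the 10 were called (background 21.6% higher), as with DESeq2 size factors (24.8%), and *Col6a1* and *Col11a1* were then among them, so that *Col6a2* alone was not called. *Col5a3* lay close to the threshold and was not called without plate 209 (0.90) or plate 215 (0.99).

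In tdTomato-EGFP+ cells all 10 genes were called higher after SCI, where 9.53% of 11433 genes tested were called higher and 17% lower. *Col6a3* again had the largest difference, at 2.95 (1.74 to 4.05), followed by *Col1a1* at 2.61, *Col5a2* at 2.32, *Col3a1* at 2.30 (0.83 to 3.45), *Col6a1* at 2.17 (2.06 to 2.25), *Col5a3* at 1.95, *Col5a1* at 1.86, *Col1a2* at 1.63, *Col6a2* at 1.42 and *Col11a1* at 1.20. The wide range of *Col3a1* and *Col6a3* over plate pairs went with their 2 uninjured plates, which differed more than 2-fold in both genes. For *Col3a1* the 2 SCI plates differed more than 2-fold as well. *Col11a1* was not called without plate 213 (0.72) or plate 211 (0.95), and *Col6a2* was not called without plate 213 (0.95).

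These injury differences depend on how groups with different transcriptomes are scaled. Under CPM the median of all genes tested was -0.59 in tdTomato+EGFP+ and -0.20 in tdTomato-EGFP+ cells, beside medians of 2.01 and 2.06 over the 10 genes. Relative to all genes, the 10 genes thus stood 2.59 and 2.26 higher. A scaling factor multiplies every gene of a group alike, so these relative values could hardly move and are no check on the scaling. They were 2.56 and 2.24 with TMM factors, and 2.55 and 2.24 with DESeq2 size factors. The share of all genes called lower in tdTomato+EGFP+ cells moved to 17.8% with TMM and to 15.5% with DESeq2. In tdTomato-EGFP+ cells, where all 10 genes were called under either scaling, the shares moved to 14.4% higher and 10.9% lower with TMM and to 13.4% and 11.6% with DESeq2.

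**Figure D2:**
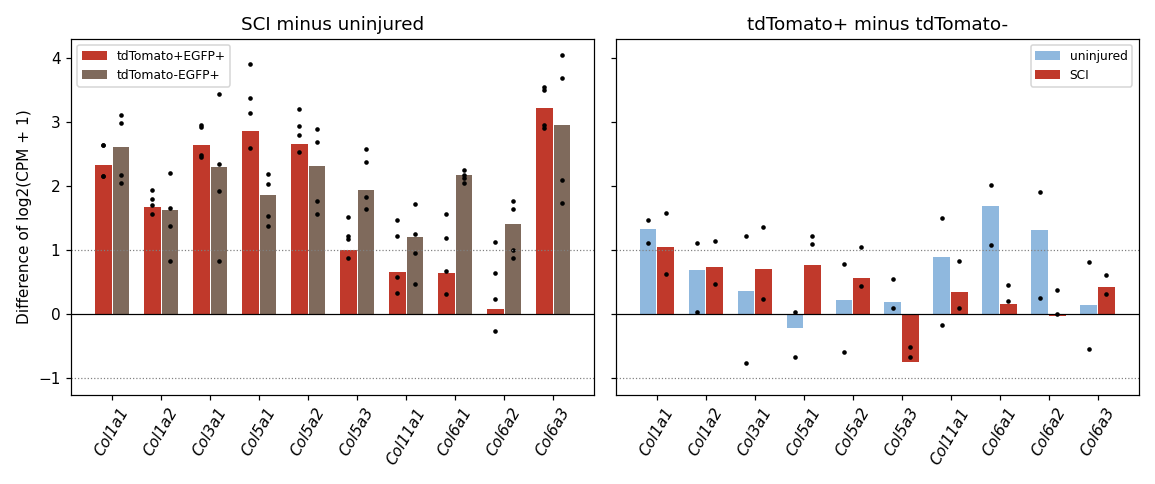
Differences of log2(CPM + 1) for SCI minus uninjured in each sort (left) and tdTomato+EGFP+ minus tdTomato-EGFP+ in each condition (right), with bars for the groups, dots for plates or plate pairs and dotted lines at -1 and 1. *Col6a3* had the longest injury bars (3.22 and 2.95), *Col6a2* a bar near 0 in tdTomato+EGFP+ cells (0.09), and *Col5a3* a negative bar for the sorts after SCI (-0.75).

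The injury differences of the 2 sorts were then subtracted from each other. 1 of 10 genes was called: *Col6a1*, whose injury difference in tdTomato+EGFP+ cells minus that in tdTomato-EGFP+ cells was -1.53 (-1.81 to -0.62 over plate pairs). In cells outside the fibroblast-like cluster described later it had the opposite sign and was called (2.24), as were 5 other members in that direction (background 7.19%). Of 12080 genes tested, 4.57% were called with a larger and 20.6% with a smaller injury difference in tdTomato+EGFP+ cells, and TMM moved these to 9.40% and 12.9%. *Col6a2* had a difference of -1.33 with mixed signs over plate pairs. *Col5a3* had one of -0.93 and *Col5a1* one of 0.99, each with a single sign over plate pairs but short of the call. The call of *Col6a1* was lost with DESeq2 size factors (-0.95) and without plate 213 (-0.91), and the 2 injury differences come from unlike starting levels, since the uninjured level of *Col6a1* was 263 CPM with and 80.6 CPM without tdTomato.

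Because chains assemble in set combinations, the ratios of chain levels per kilobase were compared between groups. Division by length multiplies a ratio by the same constant in every group, so only the size of a ratio depends on it. Undivided, *Col6a3* to *Col6a1* was 0.168 before and 1.02 after SCI in tdTomato+EGFP+ cells. *Col1a2* to *Col1a1* was 1.33 in uninjured and 0.838 in SCI tdTomato+EGFP+ cells, and 2.07 (3.14 and 1.61 on the plates) and 1.04 in tdTomato-EGFP+ cells. The lowest uninjured plate (1.25) was just above the highest SCI plate (1.23). *Col5a3* to *Col5a1* was 3.45 and 2.57 (1.61 and 3.07 on the plates) in uninjured cells with and without tdTomato, 0.924 in SCI tdTomato+EGFP+ cells and 2.68 in SCI tdTomato-EGFP+ cells, and *Col11a1* to *Col5a1* was 1.10, 0.477, 0.232 and 0.310 in the same order of groups. In tdTomato-EGFP+ cells the latter overlapped between uninjured plates (0.636 and 0.393) and SCI plates (0.479 and 0.213). *Col5a2* to *Col5a1* was between 6.95 and 9.54 in the 4 groups and between 5.23 and 13.1 on single plates. For type VI, *Col6a2* to *Col6a1* was 0.515 and 0.670 in uninjured and 0.349 and 0.399 in SCI cells, whereas *Col6a3* to *Col6a1* was 0.0680 and 0.19986 in uninjured and 0.414 and 0.347 in SCI cells. The *Col6a3* ratio of tdTomato+EGFP+ cells was 0.126 and 0.0451 on the uninjured plates and 0.419 and 0.339 on the SCI plates, which did not overlap. In tdTomato-EGFP+ cells it was 0.394 and 0.103 against 0.316 and 0.373, which overlapped.

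**Figure D3:**
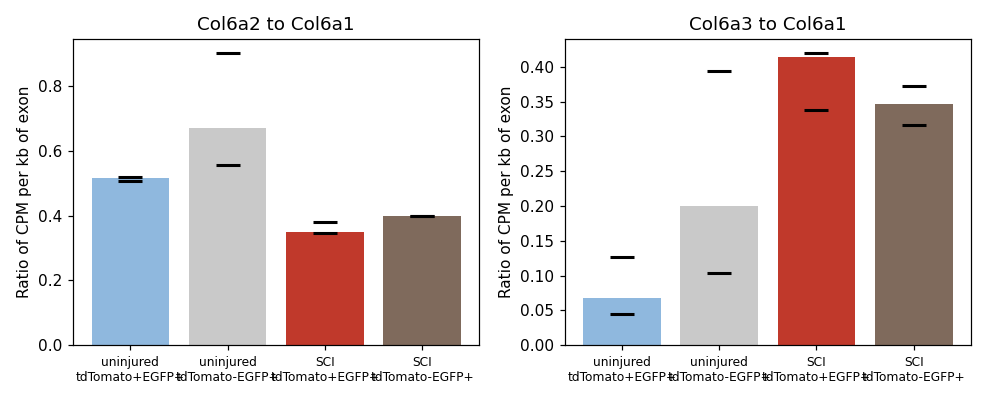
Ratio of *Col6a2* and of *Col6a3* to *Col6a1*, each in CPM per kilobase of exon, in the 4 groups, with bars for groups and dashes for plates. In tdTomato+EGFP+ cells the *Col6a3* ratio was 0.0680 before and 0.414 after SCI, while the *Col6a2* ratio was 0.515 and 0.349.

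The single cells showed how many cells lay behind these sums. Because depth differed, cells were thinned to 20000 counts each, and 10 uninjured tdTomato+EGFP+, 14 uninjured tdTomato-EGFP+, 22 SCI tdTomato+EGFP+ and 1 SCI tdTomato-EGFP+ cells below that depth were dropped. Of the 22, 21 were among the 34 cells of plate 215, so the SCI tdTomato+EGFP+ cells left were mostly of plate 211. A *Col1a1* count was then present in 26.8%, 10.9%, 95% and 44.1% of the cells left, in that order of groups (exact binomial 95% intervals 19.3 to 35.4, 5.34 to 19.1, 88.7 to 98.4 and 34.3 to 54.3). *Col1a2* was found in 67.7%, 56.5%, 99% and 95.1% of cells, and *Col3a1* in 52.8%, 35.9%, 99% and 81.4%. *Col1a2* was therefore found in most cells of every group, including the uninjured groups in which *Col1a1* was found in few.

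Among the other members, *Col6a3* had the largest gap in tdTomato+EGFP+ cells, being found in 16.5% before and 93% after SCI with tdTomato and in 10.9% and 58.8% without it. *Col5a1* was found in 8.66% and 9.78% of uninjured and 80% and 40.2% of SCI cells. *Col6a1* was found in 21.3% and 8.70% of uninjured and 82% and 36.3% of SCI cells. Thus *Col6a1*, whose summed level in tdTomato+EGFP+ cells was called higher after SCI under TMM and DESeq2 scaling but not under CPM, was found in many more cells there. *Col5a3* was found in more SCI tdTomato-EGFP+ cells (72.5%, 62.8 to 80.9) than SCI tdTomato+EGFP+ cells (50%, 39.8 to 60.2), the only member for which this was so. Without thinning, *Col1a1* was found in 35.8%, 16%, 95.9% and 69.9% of all kept cells in the 4 groups, *Col6a1* in 25.5%, 9.43%, 83.6% and 44.7%, and *Col5a3* in 54%, 35.8%, 71.3% and 86.4%.

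Of the 10 genes, the median thinned cell had a count in 2 in uninjured tdTomato+EGFP+, 1 in uninjured tdTomato-EGFP+, 8 in SCI tdTomato+EGFP+ and 6 in SCI tdTomato-EGFP+ cells. At least 8 genes were found in 15.0%, 8.70%, 66% and 25.5% of cells in that order. Partner chains were often not found together: *Col1a2* was found without *Col1a1* in 54 uninjured tdTomato+EGFP+ cells, with 32 cells holding both and 2 holding *Col1a1* alone. In SCI tdTomato-EGFP+ cells 52 held *Col1a2* without *Col1a1* and 45 held both, whereas in SCI tdTomato+EGFP+ cells 95 held both and 4 held *Col1a2* alone. *Col6a1* was found without *Col1a1* in 0 cells of the first 3 groups and in 6 SCI tdTomato-EGFP+ cells. At this depth a missing count is not evidence that a transcript was absent.

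**Figure D4:**
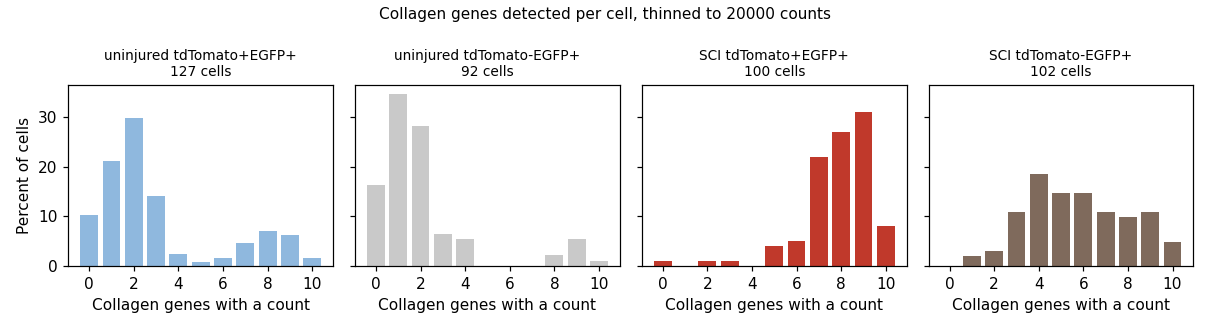
Percent of cells (thinned to 20000 counts) by the number of the 10 collagen genes with a count, in each group. The median cell had 2 and 1 genes in the uninjured groups and 8 and 6 in the SCI tdTomato+EGFP+ and tdTomato-EGFP+ groups.

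The *Col1a1* counts of uninjured cells were concentrated in few cells. The 11 cells with most counts held 99.9% of the counts of uninjured tdTomato-EGFP+ cells, and 1 cell held 33.9%. In SCI tdTomato+EGFP+ cells the 13 highest cells held 40.6% of *Col1a1* counts and the highest cell 5.25%. In SCI tdTomato-EGFP+ cells, 19 cells of the fibroblast-like cluster named below held 29224 *Col1a1* counts and the other 84 cells 10530. To see which cells held such counts, all kept cells were clustered without the 10 genes and without the other collagen-related lists. Of 6 clusters, the cluster of 72 cells that raised 8 of 8 perivascular fibroblast markers was called fibroblast-like and held 26 and 8 uninjured cells with and without tdTomato and 19 SCI cells of each sort. These numbers are given as denominators and are not compared, since its markers differed between groups.

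This fibroblast-like cluster held 92% of the uninjured tdTomato+EGFP+ counts of the 10 genes, 85.3% of the uninjured tdTomato-EGFP+, 20.3% of the SCI tdTomato+EGFP+ and 69.7% of the SCI tdTomato-EGFP+ ones, beside 23%, 7.61%, 15.4% and 19.6% of all counts. *Col5a3* had the lowest share of the members in each group, at 61.5%, 45.5%, 6.14% and 8.32%. Outside the cluster, some members were above 10 CPM in the uninjured groups and the others below it. In the other uninjured tdTomato+EGFP+ cells, *Col1a2* stood at 107.5 CPM, *Col3a1* at 90, *Col5a2* at 32.7, *Col6a2* at 28.6 and *Col5a3* at 21.6 CPM, whereas *Col1a1* was at 4.70, *Col11a1* at 2.50, *Col6a3* at 1.96, *Col6a1* at 0.643 and *Col5a1* at 0.169 CPM. The 98 other uninjured tdTomato-EGFP+ cells had the same 5 genes above 10 CPM, and *Col6a1* there rested on 3 counts in all. The gap at 10 CPM was small there, with *Col6a2* at 14.9 CPM, *Col6a3* at 8.78 and *Col5a1* at 5.92. On plates 209 and 213 *Col6a3* was at 1.19 and 12.1 CPM and *Col5a1* at 0.263 and 8.41, so *Col6a3* passed 10 CPM on plate 213. *Col1a2* and *Col6a2* were thus above 10 CPM in these cells and their partners *Col1a1* and *Col6a1* below it. Of these tdTomato+EGFP+ cells, 63 and 35 lay in clusters that raised 9 and 8 of 9 pericyte markers and also 5 and 4 of 5 endothelial markers, and the part of each cell type in these levels was not tested. Inside the cluster, uninjured tdTomato+EGFP+ cells had 2747 CPM of *Col1a1*, 2957 of *Col1a2*, 1144 of *Col6a1* and 473 of *Col6a2*.

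After SCI all 10 genes were above 10 CPM in cells outside the fibroblast-like cluster, except *Col11a1* in tdTomato-EGFP+ cells (5.63 CPM). In the other SCI tdTomato+EGFP+ cells *Col1a1* was at 3055 CPM, *Col3a1* at 4476, *Col1a2* at 2246, *Col6a3* at 434 and *Col6a1* at 319.5 CPM, and in the 84 other SCI tdTomato-EGFP+ cells they were at 511, 876, 666, 167.5 and 45.2 CPM. All 10 were called higher than in uninjured tdTomato+EGFP+ cells outside the cluster (13.8% of all genes tested were called higher there), with a median difference of 5.14, from 1.93 for *Col6a2* to 9.07 for *Col1a1*. In tdTomato-EGFP+ cells outside it, 9 of 9 genes tested were called higher (background 10.1%), with a median of 2.94. Between the sorts after SCI, 9 of 10 were called higher in tdTomato+EGFP+ cells outside the cluster (background 5.71%), and *Col5a3* had a difference of -0.79. For *Col6a1* the difference between SCI and uninjured tdTomato+EGFP+ cells was 0.64 over all cells and 7.61 outside the cluster. The cells outside it were not of the same kind in the 2 conditions, since 99 of the SCI tdTomato+EGFP+ cells lay in the cycling cluster described next and 63 and 35 of the uninjured ones in the pericyte and endothelial marker clusters, so a change of level within a cell type and a change of cell types cannot be told apart here. The cycling cluster also raised 3 of 8 perivascular fibroblast markers, so cells outside the fibroblast-like cluster were not all without such markers. Both ways of splitting the cells were chosen after the data were seen.

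Within the cluster the injury differences were small by comparison. In tdTomato+EGFP+ cells *Col3a1* was called higher after SCI (1.08) and *Col5a3* lower (-1.69), where 5.99% of genes were called higher and 20.9% lower, and the median of the 10 genes was 0.39. In tdTomato-EGFP+ cells only *Col6a3* was called (1.14, background 16.8% higher), also with a median of 0.39 and with 8 cells behind the uninjured value. *Col5a3* was the only member with a lower level after SCI inside the cluster in both sorts. It was at 115.2 CPM before and 35 CPM after SCI with tdTomato and at 225 and 62.9 CPM without it, while outside it the levels were 21.6 before and 97.6 CPM after SCI with tdTomato, and 22.2 and 169 CPM without. The difference without tdTomato was not called, and the uninjured plates (61.3 and 396 CPM) overlapped the SCI plates (17.1 and 100.9 CPM). Its levels inside and outside the cluster thus changed order between uninjured and SCI cells of both sorts, and those of *Col5a2* did so in tdTomato+EGFP+ cells. The sums of *Col5a1* and *Col6a3* also changed order in tdTomato+EGFP+ cells, but plate 215, with 4 cells inside, did not follow. There *Col5a1* was at 270 CPM inside and 205 outside, and *Col6a3* at 483 and 428. The SCI intervals of *Col5a1* overlapped (115.7 to 135.9 CPM inside, 127.3 to 136.1 outside). Inside the cluster *Col6a1* (1144 to 920.3 CPM) and *Col6a2* (473 to 287 CPM) were also lower after SCI in tdTomato+EGFP+ cells, short of a call. Between the sorts within the cluster, 4 members were called lower in uninjured tdTomato+EGFP+ cells (*Col3a1*, *Col5a1*, *Col5a2* and *Col6a3*, background 11.2%) and 2 in SCI tdTomato+EGFP+ cells (*Col5a2* and *Col6a3*, background 16.7%), with 0 called higher in either, in contrast to the 3 and 1 called higher over all cells.

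**Figure D5:**
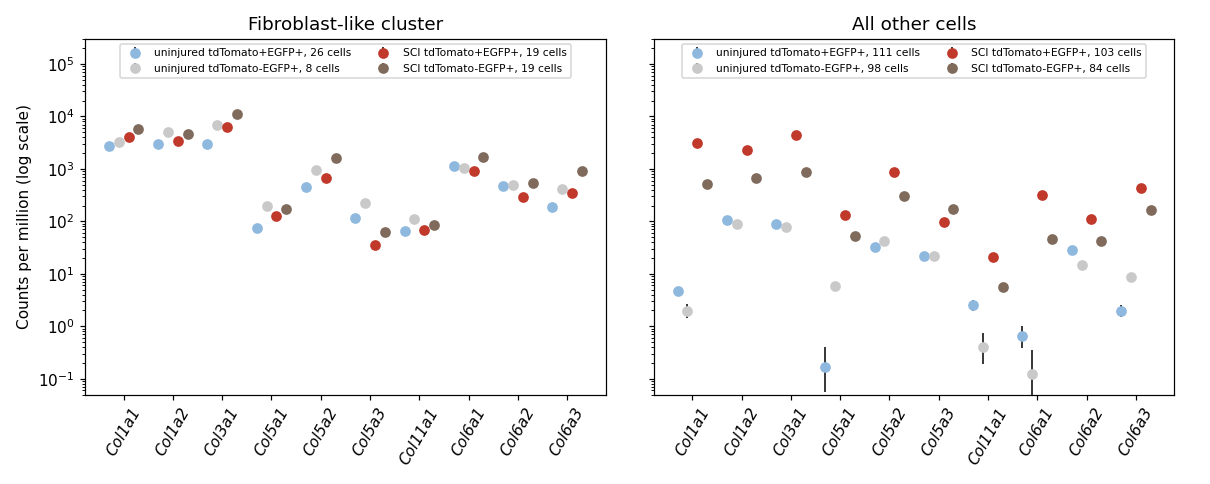
Level of each gene in CPM (log axis) in the fibroblast-like cluster and in all other cells of each group, with exact Poisson 95% intervals as bars. In uninjured tdTomato+EGFP+ cells *Col1a1* was 2747 CPM inside and 4.70 CPM outside the cluster, and in SCI tdTomato+EGFP+ cells 4121 CPM inside and 3055 CPM outside.

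Most of the remaining counts of SCI cells lay in 2 other clusters. The cycling cluster raised 6 of 6 cycling and 5 of 7 stromal fibroblast or myofibroblast markers. Raised there too were 3 of 8 perivascular fibroblast markers (*Pdgfra*, *Lum* and *Dcn*), but 0 of 9 pericyte markers. This cluster held 99 SCI tdTomato+EGFP+ cells and 79.5% of that group's counts of the 10 genes, with *Col1a1* at 3108 CPM and *Col6a3* at 441 CPM. It also held 17 SCI tdTomato-EGFP+ cells, in which *Col1a1* was at 2132 CPM and *Col6a3* at 235 CPM. In addition this cluster took in 10 uninjured cells of each sort that were very shallow. Their median was 2488.5 counts a cell with and 2205.5 without tdTomato, against 273378 for its SCI tdTomato+EGFP+ cells. A pericyte-like cluster (6 of 9 pericyte markers raised, named vascular smooth muscle-like at a coarser resolution) held 47 SCI tdTomato-EGFP+ cells and 10.1% of the group's counts of the 10 genes. Its profile was of another kind: *Col3a1* at 563 CPM, *Col1a2* at 355, *Col5a2* at 285, *Col5a3* at 225, *Col6a3* at 189 and *Col5a1* at 48, with *Col1a1* at 37.7, *Col6a1* at 19.97 and *Col11a1* at 0.813 CPM (9 counts). Hence *Col5a3* and *Col6a3* in these pericyte-like cells stood above *Col1a1*, also per kilobase of exon, the reverse of the fibroblast-like and cycling clusters.

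Genes that varied most like each member over the 468 cells, after centring within group and plate, were found by Pearson's r on log values among 14001 genes, leaving the 10 members out of the search, as a description, since cells of a library plate share depth and source. *Serpinf1*, which encodes a secreted serpin, had the highest r of those genes with *Col1a1* (0.86), *Col1a2* (0.81), *Col3a1* (0.76), *Col5a2* (0.73) and *Col6a3* (0.59). *Fbn1*, encoding fibrillin of elastic microfibrils, was the closest gene outside the members to *Col5a1* (0.65), *Islr* to *Col6a1* (0.80) and *Col11a1* (0.56), and *Igfbp6* to *Col6a2* (0.70). *Col5a3* had the weakest neighbours, with *Cd248*, *Lamb1* and *Col15a1* as the closest 3 and r = 0.40 for *Cd248*. Among the members, *Col1a1* and *Col1a2* had r = 0.85, *Col6a1* and *Col6a2* r = 0.83 and *Col1a1* and *Col6a1* r = 0.83, whereas *Col5a3* had r of at most 0.27 with any of the others.

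Genes that process collagen were higher after SCI in many cases. Of 29 enzymes and chaperones of collagen folding, propeptide cleavage and crosslinking, 10 of the 23 tested were called higher and 0 lower in SCI tdTomato+EGFP+ cells, beside 10.8% and 34.3% of all genes, with a list median of 0.93. The crosslinking oxidases *Loxl2* (21.9 to 615 CPM, a log2 difference of 4.75) and *Lox* (21.1 to 289 CPM, 3.71) led, followed by the propeptidases *Adamts14* (3.03) and *Bmp1* (2.49). In tdTomato-EGFP+ cells 14 of 25 were called higher and 1 lower after SCI, beside 9.53% and 17% of all genes, led by *Loxl2* (13.6 to 303 CPM, 4.38), *Lox* (2.81), *Bmp1* (2.56) and *Fkbp10*, a prolyl isomerase of collagen folding (2.22), and *Pcolce2*, an enhancer of propeptide cleavage, was lower (-1.88). Between sorts few of the 24 tested were called, with the share of all genes in parentheses: *P3h1* (1.24) higher and *Pcolce2* (-3.56) lower in uninjured tdTomato+EGFP+ cells (4.31% and 3.61%), and *Adamts14* (1.74) and *Loxl2* (1.02) higher and *Pcolce2* (-2.19) and *Bmp1* (-1.02) lower in SCI tdTomato+EGFP+ cells (4.31% and 17.9%). The injury difference was larger in tdTomato+EGFP+ cells for 3 of 25 (background 4.57%), *Adamts14* (2.23), *Pcolce2* (1.37) and *Loxl1* (1.18).

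Of the 11 collagen receptors, 10 were tested. In tdTomato+EGFP+ cells 0 were called higher after SCI and 3 lower, a share near the background, beside 10.8% and 34.3% of all genes: *Cspg4*, the NG2 proteoglycan of pericytes that binds type VI collagen (-3.22), and the collagen-binding integrin subunits *Itga1* (-2.49) and *Itga10* (-1.69). In tdTomato-EGFP+ cells 1 was called higher, *Itga11* (1.75), and 0 lower, beside 9.53% and 17%. The injury difference was called smaller in tdTomato+EGFP+ cells for 4 of 10 (background 20.6%), *Cspg4* (-2.94), *Itga1* (-2.89), *Itga11* (-1.48) and the endocytic receptor *Mrc2* (-1.36). Between sorts, *Itga11* was higher (1.05) and *Itga10* lower (-1.07) in uninjured tdTomato+EGFP+ cells (background 4.31% and 3.61%), and *Cspg4* (-3.56), *Itga1* (-2.98), *Itga10* (-2.05) and *Ddr1* (-1.67) were lower in SCI tdTomato+EGFP+ cells (background 17.9%). The values after SCI moved with the summed pericyte markers given above, of which *Cspg4* is one, and the part of pericytes in them was not tested. Of the 7 other fibrillar and type VI chain genes, 1 or 2 reached 10 CPM in any comparison and 0 were called.

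Of 10 proteins that sit on or between fibrils, 7 were called higher and 2 lower in SCI tdTomato+EGFP+ cells, beside 10.8% and 34.3% of all genes. The small proteoglycans *Dcn* (2.88) and *Lum* (2.60) and the matricellular *Postn* (1.87) had the largest positive differences called, while *Fmod*, another fibril-binding proteoglycan, was lower (252 to 13.7 CPM, -4.11), as was *Tnxb* (-1.15). In tdTomato-EGFP+ cells 7 were higher and 0 lower (9.53% and 17% of all genes), led by *Postn* (4.61), *Col12a1* (3.17), *Lum* (2.58) and *Dcn* (2.50), and the injury difference was called smaller in tdTomato+EGFP+ cells for 3 (background 20.6%), *Postn* (-2.74), *Col12a1* (-2.03) and *Tnxb* (-1.53). Between the uninjured sorts *Lum* (3.00), *Fmod* (2.63) and *Col12a1* (1.60) were higher and *Col14a1* (-2.49) lower in tdTomato+EGFP+ cells, beside 4.31% and 3.61% of all genes. After SCI *Lum* (3.03), *Dcn* (1.75) and *Fmod* (1.26) were higher and *Col14a1* (-2.67), *Postn* (-1.90) and *Tnxb* (-1.20) lower in them, beside 4.31% and 17.9%. *Lum* and *Dcn* are also among the perivascular fibroblast markers summed above, so they are part of that sum. The part of fibroblasts in their values was not tested.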

How the data were processed

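Libraries were made by Smart-seq3 from single sorted cells, and the deposited values are integer counts for each gene in each cell, made by the authors on mm10 per the labels. The aligner, the annotation and whether counts are reads or molecules are not given in the sources used here. Of 1968 cell columns, 503 matched a sample label, and 1465 others were not used. The table has 56701 gene rows, with 92 spike-in rows (0.0314% of counts) and 1575 rows that name no gene (0.0108%), both left out of totals. The sample labels give 3 days after SCI, whereas the series text gives another time, and the labels were followed.

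Cells with at least 200 genes and under 20% mitochondrial counts were kept (502), and 34 rich in *Pecam1* were removed, leaving 468. An upper limit of 1200 genes in the study's methods would leave 33 and was tried as an alternative. No doublet caller was run. Counts were summed per group and scaled to 1000000 counts (CPM), and groups were compared by the difference of log2(CPM + 1), which understates changes of low genes. With 1 sample per group no model was fitted, and no paired analysis was possible because plates and not replicates are shared by the 2 sorts. Levels carry exact Poisson and shares exact binomial 95% intervals, which cover counting error only. Cells were clustered in Seurat 5.3.0 (R 4.3.3) at a resolution of 0.5, and scaling alternatives used edgeR 4.0.16 (TMM) and DESeq2 1.42.0 size factors. Promoters were taken from RefSeq (GRCm38.p6), which held them for 8 of the 10 genes, not for *Col1a1* and *Col5a2*. Genes named outside the 10 are, for each list and comparison, up to 4 called genes with the largest difference, and the 3 genes of highest r for each member. Where a count was 5 or fewer its other genes were named too, after their values were seen. The members and gene lists were chosen with earlier results of these data known.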

Additional observations from a re-analysis of the deposited data

Results flagged for a closer look

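*Col5a3* differed in the sign of its sort difference between conditions on every plate: the log2(CPM + 1) difference of tdTomato+EGFP+ minus tdTomato-EGFP+ cells was 0.19 in uninjured cord (0.11 and 0.55 on the 2 plates) and -0.75 after SCI (-0.66 and -0.51). This difference was not tested.

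Counts of spike-in RNA, which the comparisons do not use, were found in all cells of plate 211 (88 and 58 of the 2 sorts), at 0.0984% of that plate's counts, and in 0 cells of the other 3 plates. Plate 211 holds 94.6% of the counts of SCI tdTomato+EGFP+ cells, and the part of this difference in preparation in the injury values was not tested.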

How the results depend on the processing

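The members' median moved by less than the spread over plates in 47 of 58 values, the number of members called stayed within 1.5 times in 58 of 78, and 1 single difference of a called gene changed sign, over all settings but the 2 named last. Between sorts that spread is the SD of 2 plate medians, and leaving out a plate gives 1 of these medians, so the count is a weak check there. The median between the uninjured sorts (0.53, SD 0.87) was counted as unmoved at -0.07 without plate 213. TMM factors gave injury medians of 2.68 (tdTomato+EGFP+) and 2.34 (tdTomato-EGFP+), 4 calls between the sorts after SCI and 2 for the difference of injury differences. DESeq2 size factors gave injury medians of 2.82 and 2.30 and, between the sorts after SCI, a median of 1.02 and 5 calls. Both scalings moved the median of all genes, in tdTomato+EGFP+ injury from -0.59 to 0.13 and 0.27. The mean of each cell's CPM left 1 call between the uninjured sorts, 0 between the SCI sorts and 3 for the difference of injury differences, which also had 2 calls with a pseudocount of 0.1, 2 with *Pecam1*-rich cells kept and 3 without each gene's top cell. Leaving out the top cells gave an injury median of 2.38 in tdTomato-EGFP+ cells. The limit of 1200 genes left no SCI tdTomato-EGFP+ cell. It gave a median of 1.53 and 0 calls over 3 genes between the uninjured sorts, where *Col1a1* turned to -0.76, and an injury median of 7.66 over 7 genes in tdTomato+EGFP+ cells. With a call at a difference of 2, 0 members were called between sorts in either condition and for the difference of injury differences, and 5 for injury in tdTomato-EGFP+ cells.

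Leaving out each plate in turn gave medians from -0.07 to 1.16 between the uninjured sorts, 0.34 to 0.94 between the SCI sorts, 1.87 to 2.23 and 1.71 to 2.07 for injury in tdTomato+EGFP+ and tdTomato-EGFP+ cells, and -0.46 to 0.61 for their difference. Calls ranged from 2 to 6, 1 to 5, 6 to 9 and 8 to 10 for the first 4, all higher, while 9.16 to 9.18%, 6.36 to 8.72%, 11.2 to 15.98% and 11.01 to 12.8% of all genes were called higher. For the difference they ranged from 2 to 4 in mixed directions, with 3 higher and 1 lower without plate 213 and 0 higher and 3 lower without plate 209 (7.74% and 26.8% of all genes). The lowest uninjured sort median came without plate 213 and the highest without plate 209.

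Of the alternatives chosen after seeing the data, leaving out the fibroblast-like cluster gave medians of 1.58 with 9 calls between the SCI sorts, 5.14 and 2.94 for injury in tdTomato+EGFP+ and tdTomato-EGFP+ cells, and 1.73 with 6 calls for their difference, where *Col6a1* turned to 2.24, and 0 calls between the uninjured sorts. Keeping that cluster alone gave medians of -0.88 and -0.83 between the uninjured and SCI sorts, with 4 and 2 calls, all lower in tdTomato+EGFP+ cells, and 0.39 and 0.39 for injury, with 2 and 1 calls and 0 for the difference. There *Col1a1* turned to -0.26 and -0.50 and *Col6a2* to -0.090 between the uninjured (*Col1a1*, *Col6a2*) and SCI (*Col1a1*) sorts. *Col5a3* turned to -1.69 for injury in tdTomato+EGFP+ cells, and *Col5a3*, *Col11a1*, *Col5a1* and *Col1a2* to -1.82, -0.35, -0.14 and -0.12 in tdTomato-EGFP+ cells. The median number of members found in a cell was 3, 2 and 9 after thinning to 50000 counts in uninjured tdTomato+EGFP+, uninjured tdTomato-EGFP+ and SCI tdTomato+EGFP+ cells, and without thinning 4, 3, 9 and 7 in the 4 groups. The causes of these shifts were not tested. Depth limits the lowest values, such as 3 counts of *Col6a1* outside the cluster in uninjured tdTomato-EGFP+ cells.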
